A study of Mus musculus with 3 samples.

Results

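The regions described here are the stretches of open chromatin around 9 genes used as markers of GABAergic interneurons: Gad1, Gad2, Dlx1, Dlx2, Dlx5, Dlx6, Lhx6, Sst and Npy. They were taken by position, as every ATAC-seq peak overlapping 1 of 7 fixed windows on the mouse build mm9. The windows are 60 to 115 kb long and 625 kb in all. The genes were chosen with earlier results of these data known. Dlx1 with Dlx2 and Dlx5 with Dlx6 are neighbouring pairs and share a window each. Joining peaks that overlapped by at least 1 bp gave 20 regions in these windows, of 84529 in the whole data set. ATAC-seq inserts sequencing adapters into accessible DNA with the transposase Tn5, and a peak is a stretch where such insertions pile up. The tissue was microdissected dentate gyrus, the hippocampal field dominated by granule neurons, from adult C57BL/6 mice aged 8 weeks. The 3 libraries, each from 1 individual, form 1 group labelled E24. The labels do not spell this name out and record neither a genotype nor a treatment for it. The series concerns neuronal activation, but only this group was analysed here, so no change with activity can be read from these values.

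GABAergic interneurons are the inhibitory neurons of the hippocampus. Gad1 and Gad2 encode the glutamate decarboxylases that make GABA. The homeobox genes Dlx1, Dlx2, Dlx5 and Dlx6 are transcription factor genes that set up the interneuron fate in the embryonic ganglionic eminences. Lhx6, a LIM homeobox gene, acts in those derived from the medial eminence, which include the somatostatin cells. Sst and Npy encode the neuropeptides somatostatin and neuropeptide Y, which mark overlapping interneuron classes, many of them in the hilus of the dentate gyrus. Interneurons are a small minority of the cells of this tissue. In such a bulk sample, fewer cells of a type and less accessibility per cell cannot be told apart. Which cells a peak comes from, interneurons or others, was not determined.

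The data set gives each peak a deposited score with no stated unit and a floor at 50. Its size depends on depth, which is unknown, so scores are given beside a percentile, the percent of peaks in the same animal's list with that score or a lower one. The lists held 62912, 68699 and 48769 peaks in replicates 1, 2 and 3. Within each list no peaks overlapped. Any 2 lists shared at most 17 peaks with identical borders, so no list was a copy of another. The window positions come with the selection rule and were not checked against an mm9 gene annotation. No peak is therefore placed at a promoter, an exon or an intron. The labelled tissue was not checked against markers of other cell types for the same reason.

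The promoters of the members differ in base composition. RefSeq promoters on GRCm38.p6, a build other than that of the peaks, were matched for 7 of the 9 genes, with 3 start sites for Lhx6; Dlx5 and Dlx6 were not matched. Among the 250 bases before each start, the Dlx2 promoter held 24 CpG dinucleotides, the Dlx1 promoter 22 and the Npy promoter 21. The median of all 32851 promoters in the table was 6, and the quartiles were 2 and 16. Gad1 held 17 CpG, Gad2 13, the 3 Lhx6 starts 14, 17 and 7, and Sst 8. Dlx1 and Dlx2 are printed because they hold the most CpG of those matched. They are the 250 bases upstream of the start on GRCm38.p6, read 5′ to 3′, with each CG in capitals. Dlx1 is chr2:71529195-71529444 on the plus strand and Dlx2 is chr2:71546755-71547004 on the minus strand.
Dlx1: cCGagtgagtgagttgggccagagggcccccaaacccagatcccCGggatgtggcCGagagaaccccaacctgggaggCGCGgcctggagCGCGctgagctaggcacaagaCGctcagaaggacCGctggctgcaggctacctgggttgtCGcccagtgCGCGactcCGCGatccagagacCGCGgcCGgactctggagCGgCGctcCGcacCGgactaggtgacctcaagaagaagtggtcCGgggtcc
Dlx2: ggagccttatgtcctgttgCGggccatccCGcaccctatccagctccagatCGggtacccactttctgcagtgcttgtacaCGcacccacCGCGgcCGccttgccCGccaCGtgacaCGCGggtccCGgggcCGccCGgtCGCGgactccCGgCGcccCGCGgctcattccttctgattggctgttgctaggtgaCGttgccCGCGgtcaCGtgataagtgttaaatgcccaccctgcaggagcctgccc

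The Sst promoter is shown for its cAMP response element, the textbook binding site of CREB, a factor that acts in activity-driven transcription. It lies at chr16:23890845-23891094 on the minus strand of GRCm38.p6, and the capitals mark the element.
Sst: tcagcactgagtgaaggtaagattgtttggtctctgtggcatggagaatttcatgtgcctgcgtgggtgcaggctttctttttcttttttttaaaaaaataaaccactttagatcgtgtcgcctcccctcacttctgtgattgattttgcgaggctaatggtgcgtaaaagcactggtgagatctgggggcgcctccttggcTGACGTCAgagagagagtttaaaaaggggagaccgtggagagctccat
The palindrome TGACGTCA, which reads the same on both strands, begins 48 bases before the start of Sst. It occurred in 1 of the 9 member promoters and in 1.55% of all promoters of the same length. Searched on both strands, TATAAA was found in 1 member promoter (Gad1; 12.4% of all promoters) and CACGTG in 1 (Dlx2; 6.02% of all). TAATTG, a core that many homeodomain proteins bind, was found in 1 (the third Lhx6 start; 7.17% of all). CCGCCC was found in 5 of the 9 promoters (32.7% of all), those of Gad1, Dlx2, Npy and the first and second Lhx6 starts. The searched motifs do not contain one another. These matches describe letters in a window and are not measured binding sites.

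Across the 7 windows, peaks were somewhat sparser than over the autosomes and mostly of middling or low rank. The windows held 15 peaks in replicate 1, 14 in replicate 2 and 10 in replicate 3, a mean of 13 ± 2.6 (SD, n = 3). Per Mb of window these were 24, 22.4 and 16 peaks, against 24.5, 26.8 and 19 per Mb over the autosomes of the same animals. The ratio of window to autosome density was 0.98, 0.84 and 0.84, below 1 in each animal. With 3 animals a two-sided exact sign-flip test cannot give a p below 0.25, so no test was made. The peaks covered 1.25%, 1.44% and 0.493% of the window length in replicates 1, 2 and 3, against 1.49%, 1.67% and 0.825% of the autosomes.

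Of the 20 regions, 7 were held by all 3 animals, 5 by 2 animals and 8 by 1. The 7 make up 35.0% (exact Clopper-Pearson 95% interval 15.4% to 59.2%, counting error only), against 43.6% of all 84529 joined regions. Over the genome, 23.1% of regions were held by 2 animals and 33.4% by 1. The interval treats the 20 regions as independent, which neighbours within a window need not be. It holds the genome-wide share, but a difference in sharing was not tested. By animal, 7 of the 15 peaks of replicate 1, 7 of the 14 of replicate 2 and 7 of the 10 of replicate 3 lay in a region held by all 3. Over the whole lists these shares were 59.4%, 54.1% and 78.9%. The number held by all 3 fell to 1, that of Lhx6, in the highest-scoring 50% of each list, and rose to 13 with every window 20 kb longer at both ends. The glutamate decarboxylase windows held 8 regions, 2 of them in all 3 animals. The transcription factor windows held 7, with 3 in all 3, and the neuropeptide windows held 5, with 2 in all 3.

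**Figure D1:**
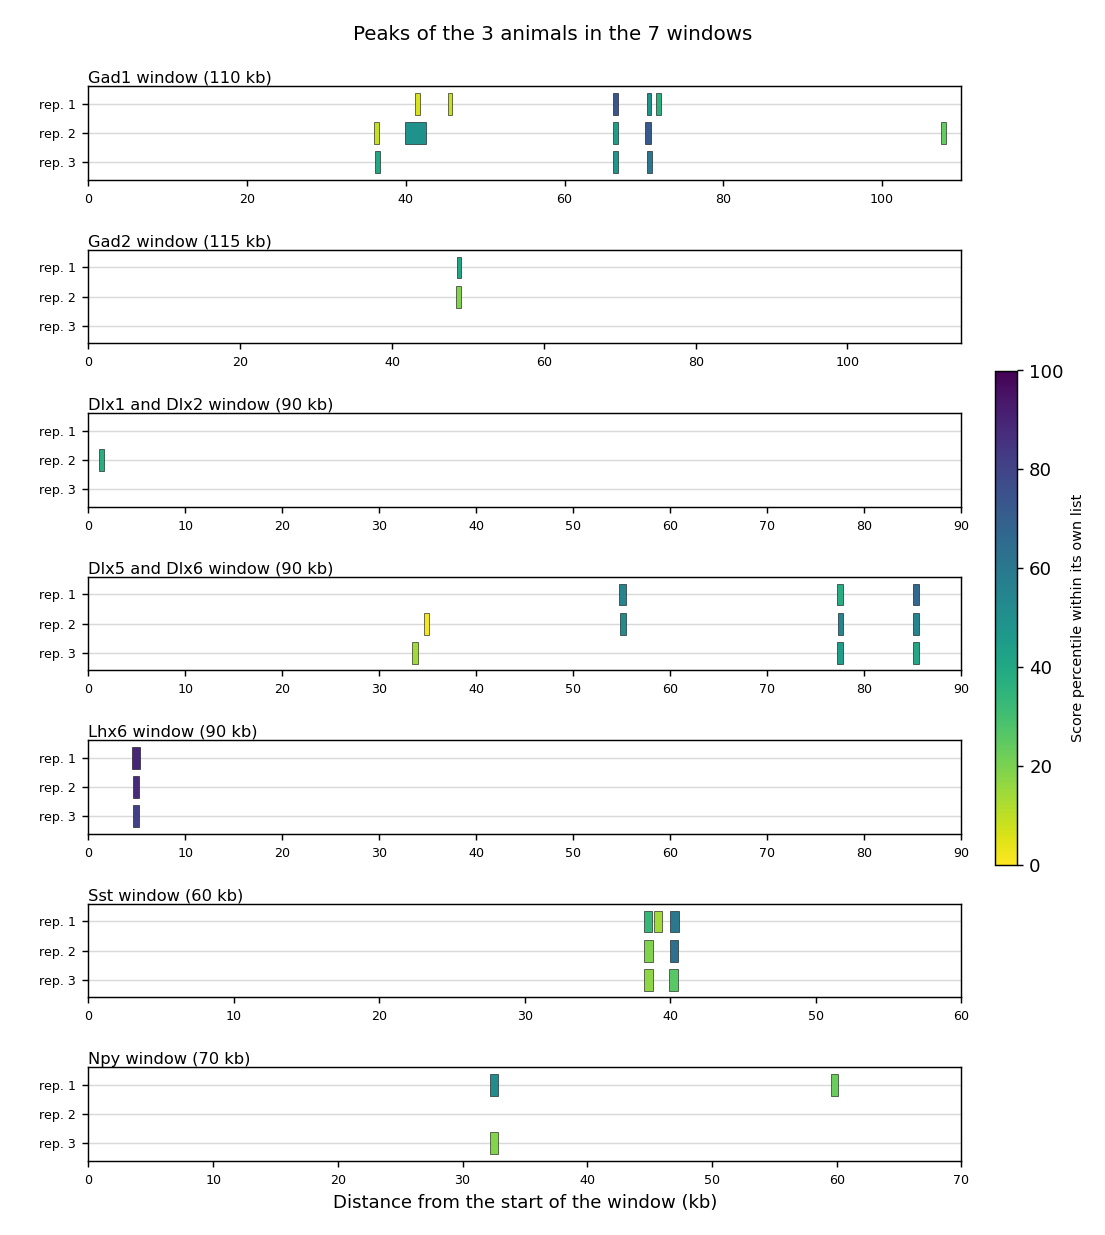
Peaks of each animal (rows) along each window, as distance from the start of the window in kb, coloured by the score percentile within that animal's list; peaks under 0.6 kb are drawn 0.6 kb wide so that they can be seen. The Gad1 and Dlx5 and Dlx6 windows hold 7 and 5 regions, while the Gad2, Dlx1 and Dlx2, and Lhx6 windows hold 1 each.

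Scores in the windows leaned to the lower part of each list. The median score was 99.6 in replicate 1, 124 in replicate 2 and 82.2 in replicate 3, at percentiles 40.8, 46.9 and 40.3 of the respective lists, a mean of 42.6 ± 3.7 (SD, n = 3). Of the 39 peaks, which count a region once for each animal that had it, 25 lay at or under the 50th percentile. At or under the 10th lay 4, and above the 75th lay 3. By definition 50% of a list lies at or under its 50th percentile, 10% at or under its 10th and 25% above its 75th. The 4 are thus near the list share, and the 3 fall short of it. The 3 above the 75th were the peaks of 1 region, in the Lhx6 window, and no peak reached the highest-scoring 10%. The same held within the shared regions. Among all regions held by all 3 animals, the 7 of these windows had median percentiles of 37.7, 26.5 and 33.2 in replicates 1, 2 and 3, and 2 of the 7 lay above the middle in each animal. Peaks of the windows found in 1 animal had a median percentile of 18.6, against 16.6 for all such peaks in the genome. Those in 2 animals stood at 40.5 against 32.7, and those in all 3 at 54.4 against 67.6.

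**Figure D2:**
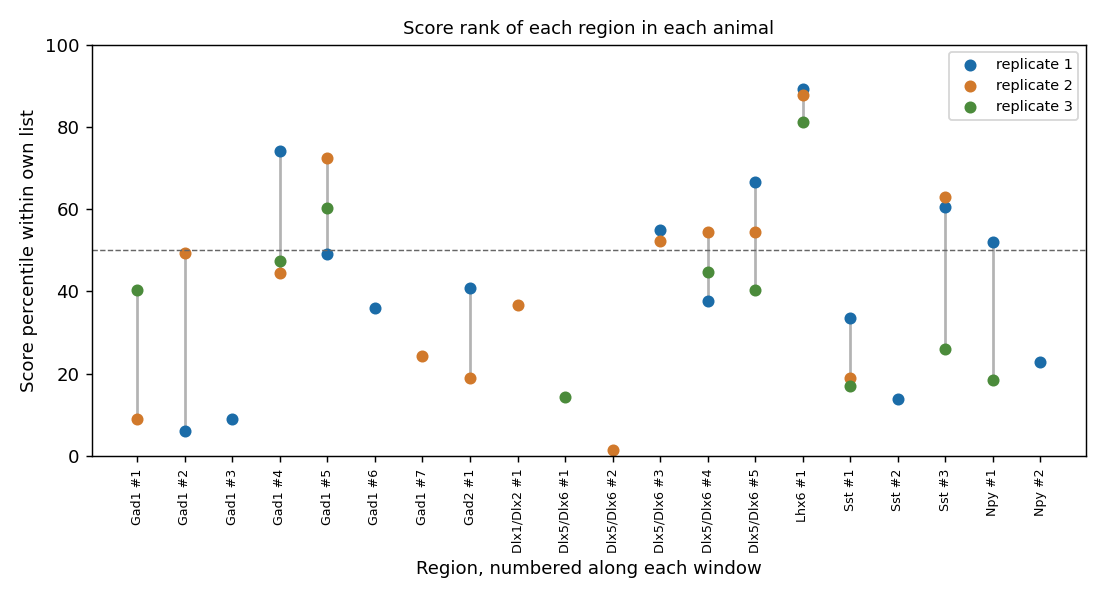
Score percentile within its own list (y axis) of each of the 20 regions (x axis, numbered along each window), with 1 point per animal that had a peak and a grey line over their range; the dashed line is the 50th percentile. The Lhx6 region stands highest in every animal, from 81.1 to 89.1, and the Dlx5 and Dlx6 region 2, called in replicate 2 alone, lowest at 1.32.

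Gad1, which encodes the decarboxylase GAD67 and makes most of the GABA of these cells, had the most regions. Its window, chr2:70360000-70470000, held 5, 5 and 3 peaks in replicates 1, 2 and 3, in 7 regions. The highest-ranked was chr2:70430182-70430949, with scores of 119, 256 and 120 in replicates 1, 2 and 3, at percentiles 49.0, 72.4 and 60.3. Replicate 2 was thus the highest there, and the other animals lay near the middle of their lists. It was also the widest Gad1 region held by all 3, at 768 bp, of which 326 bp lay inside the peak of every animal. The second shared region, chr2:70426157-70426706, scored 239, 117 and 92.8, at percentiles 74.2, 44.6 and 47.5. Here replicate 1 was the highest, so the order of the animals differed between these regions, which lie 3475 bp apart.

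The remaining Gad1 regions were less regular. One, chr2:70399894-70402525, was a 2632 bp peak in replicate 2 with a score of 131 (percentile 49.2). Inside it replicate 1 had a 536 bp peak with a score of 54.5 (percentile 6.05), and replicate 3 had none. Another, chr2:70396121-70396529, was called in replicate 2 (score 57.5) and replicate 3 (score 82.1) and not in replicate 1. The other 3 were called in 1 animal each, with scores of 56.9 and 90.5 in replicate 1 and 75.7 in replicate 2. The 7 regions are more than in 83.3% of all 22458 autosomal tiles of 110 kb. The 2 shared ones are more than in 56.6% of them, and 68.1% of the tiles had at least 1. The tiles include 14.9% with no region at all. More than 2 shared regions were found in 24.7% of all tiles and in 29.0% of those with any region. Peaks covered 2.24%, 4.32% and 0.735% of the window in replicates 1, 2 and 3, and 1.37%, 1.72% and 0.591% of its flanks, the stretches of the same length on either side. The window lay above the mean of its 2 flanks in each animal, but the sides were unequal. The flank after the window alone was covered to 2.75%, 2.75% and 0.975% in replicates 1, 2 and 3. This was more than the window in replicates 1 and 3. Gad1 lies between Erich2 and Gorasp2 among the protein-coding genes of GRCm38.

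Gad2, which encodes the synaptic decarboxylase GAD65, had a single weak region. In its window, chr2:22455000-22570000, the region chr2:22503611-22504033 scored 99.6 in replicate 1 and 68.3 in replicate 2, at percentiles 40.8 and 18.8, and was not called in replicate 3. The part common to both animals was 265 bp. No region of this window was held by all 3 animals, whereas 69.6% of autosomal tiles of 115 kb had at least 1. More regions were found in 73.5% of those tiles than in the Gad2 window. Peaks covered 0.323%, 0.276% and 0% of it, a mean of 0.20% ± 0.17 (SD, n = 3), against 2.39% ± 0.49 of its flanks. Much of the flank value comes from 1 region, chr2:22442587-22446263, which ends 8737 bp before the edge of the window and scored 3100 in every animal, the highest score in replicates 1 and 3, while the highest of replicate 2 was 3213. Without it the flanks were covered to 0.87% ± 0.43, and in each animal still more than the window.

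The Dlx1 and Dlx2 window had the lowest mean coverage of the 7, although it did not differ from that of Gad2 beyond the spread between animals. These paired homeobox genes are needed for interneuron migration and differentiation. In chr2:71330000-71420000, replicates 1 and 3 had no peak. Replicate 2 had 1, chr2:71331141-71331566, with a score of 97.8 (percentile 36.8), which starts 1141 bp inside the edge. The following 88.4 kb, 98.3% of the window, had no peak in any animal. Where the promoters printed above lie in this mm9 window was not determined. No region was held by all 3 animals, against 63.0% of autosomal tiles of 90 kb with at least 1. In turn 37.0% of those tiles had no region held by all 3, and 18.1% had no region at all. More regions than the 1 of this window were found in 66.2% of them. The flanks were not empty: they were covered to 1.56% ± 0.75 against 0.16% ± 0.27 of the window (SD, n = 3), and every animal had more in the flanks. The nearest shared region after the window, chr2:71436175-71437321, scored 295, 353 and 83.8. Metap1d and Itga6 are the protein-coding neighbours of the pair in GRCm38.

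Dlx5 and Dlx6, the other pair of this family in the set, had 5 regions, against 1 for Dlx1 and Dlx2. Their window, chr6:6780000-6870000, held 3, 4 and 3 peaks in replicates 1, 2 and 3, and 2 of its regions were held by all 3 animals. The highest-ranked, chr6:6865074-6865601, scored 186, 149 and 82.3, at percentiles 66.5, 54.4 and 40.3. It was 528 bp wide, and 279 bp were common to all 3 animals. The region chr6:6857295-6857797, 7276 bp before it, scored 93.4, 149 and 88.4, at percentiles 37.5, 54.5 and 44.8. Replicate 1 was the highest at the first of these and replicate 2 at the second. A further region, chr6:6834731-6835414, scored 136 in replicate 1 and 141 in replicate 2, within 3 percentile points of each other, and was not called in replicate 3.

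The weakest Dlx5 and Dlx6 regions lay close together. Replicate 3 alone had chr6:6813531-6813786 (score 58.0) and replicate 2 alone had chr6:6814689-6815042 (score 51.0, percentile 1.32), with 902 bp between them. They do not overlap, so under the joining rule neither counts as shared. More than 2 shared regions were found in 18.2% of autosomal tiles of 90 kb. Coverage was 1.75%, 2.04% and 1.05% in replicates 1, 2 and 3. The flanks were covered to 2.02% ± 0.27 and the window to 1.62% ± 0.51 (SD, n = 3), a difference within the spread between animals. Both shared regions lie near the end of the window, and the next shared region, chr6:6875155-6875855, lies 5155 bp after its edge. Sem1 and Sdhaf3 flank the pair in GRCm38.

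Lhx6 had 1 region, and it was the strongest of all 20. In the window chr2:35900000-35990000 each animal had a single peak, at chr2:35904513-35905278. It scored 454, 495 and 215 in replicates 1, 2 and 3, at percentiles 89.1, 87.7 and 81.1, a mean of 86.0 ± 4.3 (SD, n = 3). The 3 animals agreed here more closely in rank than at any other region held by all 3. The peaks were 766, 686 and 575 bp wide, and the 575 bp of replicate 3 lay inside both others. The remaining 84.7 kb of the window, 94.1% of its length, held no peak. The region lies 4513 bp inside the edge of the window, so its closeness to Lhx6 itself rather than to a neighbour was not tested. In GRCm38 the protein-coding neighbours of Lhx6 are Morn5 and Rbm18. Just outside the far edge, 1665 bp away, the region chr2:35991665-35992672 scored 419, 764 and 226.

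**Figure D3:**
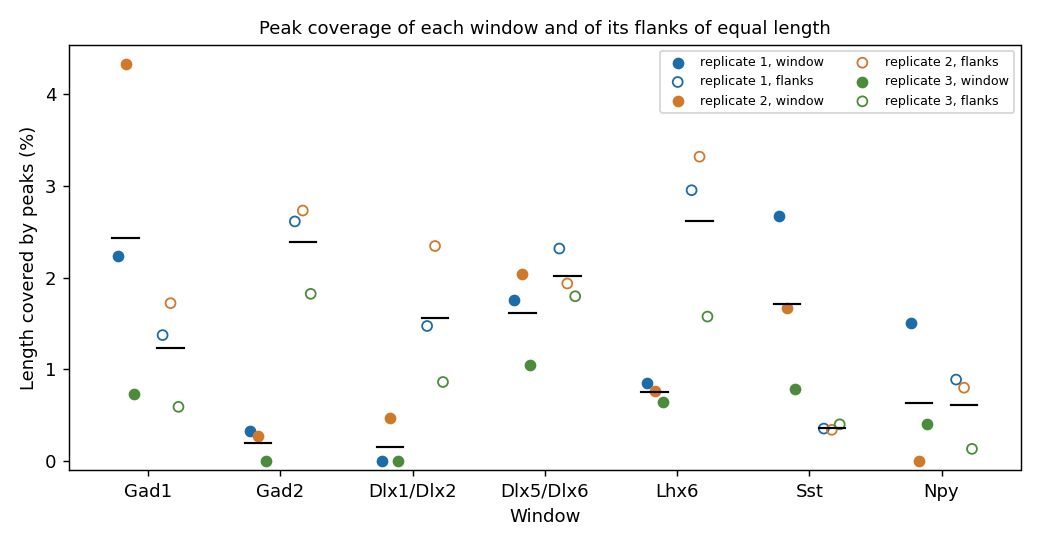
Percent of length covered by peaks (y axis) in each window (filled points) and in its 2 flanks of the same length (open points), 1 point per animal with the mean as a bar. The mean of the 2 flanks lies above the window in all 3 animals at Gad2, Dlx1 and Dlx2, and Lhx6, and below it in all 3 at Gad1 and Sst. The flank after the window alone exceeded it in replicates 1 and 3 at Gad1 and in replicate 3 at Sst.

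The Lhx6 window was covered less than its flanks in each animal, at 0.75% ± 0.11 against 2.62% ± 0.92 (SD, n = 3). Among autosomal tiles of 90 kb, 36.1% had more than the 1 shared region of Lhx6. The plot of these tiles places the 3 homeobox windows side by side: Dlx1 and Dlx2 at 0, Lhx6 at 1, and Dlx5 and Dlx6 at 2 shared regions, with a median tile at 1.

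**Figure D4:**
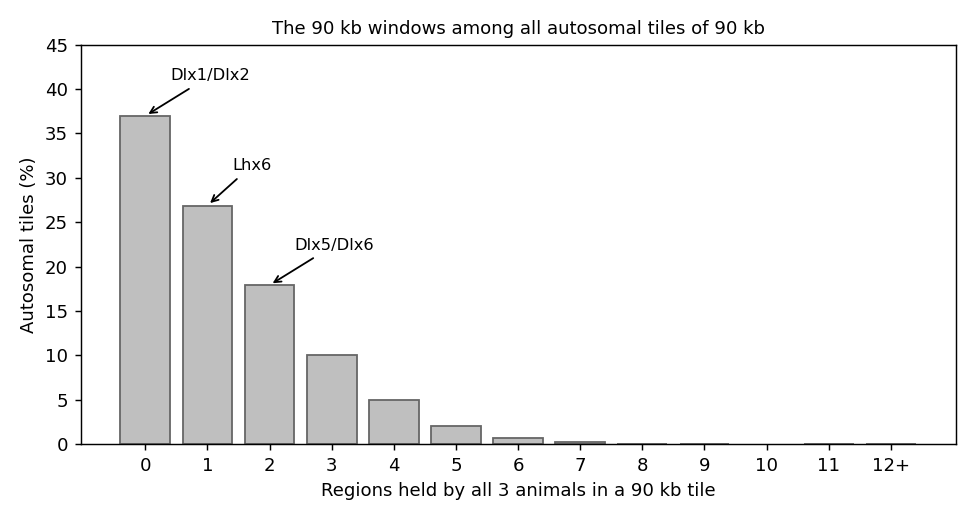
Percent of the 27451 autosomal tiles of 90 kb (y axis) by the number of regions held by all 3 animals (x axis, 12 or more together), with the 3 windows of that length marked. Dlx1 and Dlx2 fall in the fullest class, tiles with 0 such regions (37.0%), and Dlx5 and Dlx6 in that with 2 (17.9%).

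Sst had a compact cluster. Its window, chr16:23860000-23920000, held 3, 2 and 2 peaks in replicates 1, 2 and 3, all between 23898208 and 23900610 on chromosome 16. The highest-ranked region, chr16:23899949-23900610, scored 157, 188 and 66.8, at percentiles 60.5, 62.9 and 26.0. Replicates 1 and 2 were close, and replicate 3 was far lower in rank. This region was 662 bp wide, of which only the 214 bp of replicate 3 were common to all 3 animals. The other shared region, chr16:23898208-23898728, was weaker, at 86.4, 68.3 and 59.7 and percentiles 33.4, 18.9 and 16.9. Between them, replicate 1 alone had chr16:23898943-23899369 with a score of 61.4. The gaps on its sides were 214 and 579 bp.

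The 2 shared regions of the Sst window are more than in 76.9% of the 41180 autosomal tiles of 60 kb, 52.1% of which had at least 1. These tiles include 26.1% with no region at all. More than 2 shared regions were found in 8.63% of all tiles and in 11.7% of those with any region. The Sst count fell to 1 under a 50% reciprocal overlap or with an equal number of top peaks per list, and to 0 in the highest-scoring 50%. The window was covered to 1.71% ± 0.94, against 0.37% ± 0.03 of its flanks (SD, n = 3). The difference was smallest in replicate 3, at 0.785% against 0.401%, and largest in replicate 1, at 2.67% against 0.354%. The flank before the window held no peak in any animal. The flank after it alone was covered to 0.802% in replicate 3, slightly more than the window. Before the window the nearest region held by all 3 animals lay 618763 bp away and after it 68455 bp away. Weaker peaks lay nearer: the flank after the window held 1, 1 and 2 peaks in replicates 1, 2 and 3, and the nearest region of any kind began 11311 bp after the edge. Rtp4 and Rtp2 are the protein-coding neighbours of Sst in GRCm38.

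Npy had 2 weak regions and none held by all 3 animals. In chr6:49740000-49810000 the region chr6:49772175-49772853 scored 127 in replicate 1 and 60.8 in replicate 3, at percentiles 52.0 and 18.5. It was not called in replicate 2, although that animal had the longest list. Replicate 1 alone also had chr6:49799655-49800030, with a score of 71.3. Of autosomal tiles of 70 kb, 56.4% had at least 1 shared region, and 40.0% had more regions than the 2 of Npy. Coverage was 1.51%, 0% and 0.4% in replicates 1, 2 and 3. The mean of 0.64% ± 0.78 did not differ from the 0.61% ± 0.41 of the flanks beyond the spread between animals (SD, n = 3). In GRCm38 its neighbours are Stk31 and Mpp6.

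Among the 7 shared regions, replicate 3, which had the shortest list and the narrowest peaks, scored lowest in 6 and was narrowest in 6. The same animal was lowest in score in 81.9% and narrowest in 90.01% of all 36824 shared regions, so this is no feature of these windows. Ranked among the shared regions of its own list, replicate 3 was lowest in 2 of the 7, at Lhx6 and at Sst region 3, and in 34.8% of all. The exceptions in score and width were a Gad1 region, where replicate 1 scored 119 against 120, and the Dlx5 and Dlx6 region 4, where the replicate 1 peak of 367 bp was narrower than the 412 bp of replicate 3. Replicate 1 scored highest in 3 and replicate 2 in 4. The joined regions were 503 to 768 bp wide, and the part covered in every animal was 214 to 575 bp, or 32.3% to 75.1% of the region. The cluster at Sst and the region at Lhx6 mark the ends of that range. The median peak in the windows was 528, 491 and 279.5 bp wide in replicates 1, 2 and 3, against 504, 504 and 353 bp over the whole lists. Peaks there were thus of about the usual width in replicates 1 and 2 and narrower in replicate 3.

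Taking all 7 windows, flanks were fuller. The flanks had 28.0, 31.2 and 23.2 peaks per Mb in replicates 1, 2 and 3, and the windows had 0.86, 0.72 and 0.69 times as many. Coverage of the flanks was 1.65% ± 0.48 against 1.06% ± 0.50 of the windows (SD, n = 3). Leaving out the region that scored 3100 before Gad2 lowered the flank value to 1.37% ± 0.47. The windows stayed under this in each animal. Gad1, Sst and Npy had a higher mean coverage than their 2 flanks together, and the other 4 windows a lower one.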

How the data were processed

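Alignment used Bowtie2 and the build was mm9, per the submitters' processing notes. The authors deposited 1 peak list per animal, whose peak names are those of MACS. Each deposited line gives a position, a name and a score with no stated unit. Versions, settings, duplicate removal and any Tn5 shift were not given in the sources used here. Depth is unknown.

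Peaks overlapping by 1 bp across lists were joined. Score and width percentiles were computed within each whole list. Chromosomes 1 to 19 were tiled, from base 1 to the last peak, in steps of each window's length. Starts are counted from 1. Members and lists were chosen with earlier results of these data known. In each window the region with the highest mean score percentile and the widest region held by all 3 animals are given in full. Gene neighbours and promoters are RefSeq's on GRCm38.p6, used for names and sequence only. No test between conditions was possible with 1 group. Alternatives were a 50% reciprocal overlap, the highest-scoring 50% or an equal number of peaks per list, windows changed by 10 or 20 kb, and leaving out each replicate. The joining and overlap steps were tested on simulated lists, whose regions lay far apart with at most 1 peak per list. Closely spaced regions, and regions with several peaks of 1 list, were not simulated. Scripts ran on Python 3.11.15 with scipy 1.17.1, numpy 2.4.6, matplotlib 3.10.9 and pandas 2.3.3.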

Additional observations from a re-analysis of the deposited data

How the results depend on the processing

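Of 112 alternative values for 14 results, 90 stayed within 1 SD of the animals, the 95% binomial interval or, for counts, a factor of 1.5, and 22 moved outside. Some of the 90 could not move. Coverage, score percentile and width do not use the joining, so a 50% reciprocal overlap leaves them unchanged. Shared counts of 0 cannot rise under a stricter overlap, with fewer peaks or in shorter windows. The 90 are therefore no measure of robustness. In the highest-scoring 50% of each list, the regions in the windows fell from 20 to 8 and those held by all 3 animals from 7 to 1, that of Lhx6, a share of 12.5%. The genome-wide share at this cut was not computed. Coverage was then 0.434%, and 1 window held a shared region, with 0 at Gad1, at Dlx5 and Dlx6, and at Sst. The mean score percentile was 28.6, ranked anew within the shortened lists. It is therefore not on the same scale as the 42.6 of the whole lists. With an equal number of top peaks per list the score percentile, again ranked within the lists so cut, was 37.4. Sst then kept 1 shared region, as it did under 50% reciprocal overlap. Lengthening every window by 20 kb gave 29 regions and a score percentile of 47.5. Of these regions 13 were shared, or 44.8%, against 43.6% over the genome. There were then 2 shared regions at Gad2, 1 at Dlx1 and Dlx2, 4 at Dlx5 and Dlx6 and 2 at Lhx6. Shortening by 10 kb left 1 at Dlx5 and Dlx6 and 0 at Lhx6. The counts at Gad2, at both Dlx windows and at Lhx6 therefore depend on the window edges.

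Leaving out 1 replicate gave 16 to 19 regions, 8 to 10 held by both remaining animals (47.1% to 52.6%), in 4 to 5 windows, with coverage of 0.873% to 1.35%, score percentiles of 40.5 to 43.8 and widths of 385 to 510 bp. Fewer animals raise sharing by construction. The counts ran from 2 to 3 at Gad1, 0 to 1 at Gad2 (1 without replicate 3), 2 to 3 at Dlx5 and Dlx6 and 0 to 1 at Npy (1 without replicate 2). They stayed at 0 at Dlx1 and Dlx2, 1 at Lhx6 and 2 at Sst. Without read depth, a missing peak is not shown to be closed chromatin. No paired analysis was possible because all samples belong to E24.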

Other observations

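The 2632 bp peak of replicate 2 in the Gad1 window, singled out after its values were seen, was wide for its score. It was wider than 99.6% of the peaks of that list, yet its score of 131 lay at percentile 49.2. Of the 264 peaks of replicate 2 at least as wide, the median percentile was 91.5, and 18 of them (6.82%), this one included, scored as low or lower. Replicate 1 had a 536 bp peak with a score of 54.5 within it, and replicate 3 had none.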
